A study of Homo sapiens with 5 samples.

Results

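The 4 inhibitor of DNA binding genes ID1, ID2, ID3 and ID4 and 6 genes of BMP-SMAD signalling (BMP4, BMP7, SMAD6, SMAD7, BAMBI and NOG) were followed through the differentiation of human embryonic stem cells into gonadotropin-releasing hormone (GnRH) neurons. The 10 genes are selected by symbol, in a list drawn up with earlier results of these data known, and each had 1 row in all 8 libraries, out of 37407 gene identifiers in the files, of which 32732 were in every library.

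ID proteins are helix-loop-helix factors without a basic domain. They bind the E proteins TCF3, TCF4 and TCF12, so that these partners of proneural factors cannot bind DNA, and they are known for holding progenitors back from differentiation. BMP ligands such as BMP4 and BMP7 signal through type I receptors to SMAD1, SMAD5 and SMAD9, and the ID genes are classical direct targets of this branch. SMAD6 and SMAD7 are inhibitory SMADs, BAMBI is a decoy receptor, and NOG (noggin) is a secreted BMP antagonist. These are induced by the signals they restrain in many tissues, and form the negative feedback of the pathway. In the embryo, low BMP signalling in the ectoderm is linked with neural fate.

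The cells were the line WA09. D0 was the undifferentiated culture. Dual SMAD inhibition (dSMADi) was applied to all cultures from D0 until D10, with 2 μM dorsomorphin, which blocks BMP type I receptors, and 10 μM SB431542, which blocks activin, nodal and TGF-β receptors. D5_dSMADi and D10_dSMADi received these 2 inhibitors alone, whereas D5_XAV939 and D10_XAV939 also received 10 μM XAV939, an inhibitor of Wnt signalling. Cultures of D22, D24 and D26 had no XAV939, and were given 100 ng/mL FGF8 from D11 to D20, frozen at D17 and thawed, and given 20 μM DAPT, a Notch inhibitor, from D21. The first comparison sets D5_dSMADi against D0, which also differ in culture medium and in 5 days of differentiation. No D5 culture lacked dSMADi, so its part in a difference from D0 cannot be told apart from these. The other comparisons set cultures with XAV939 against those without it, at D5 and at D10.

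Unique molecular identifiers (UMIs) were counted at the 3′ ends of transcripts in single cells. The 5 conditions from D0 to D10 were tagged and run together in 1 droplet run, and their own tag held 95.1% to 95.6% of tag UMIs in each. No cell barcode was shared among these 5, and 1 to 37 barcodes were shared between other pairs of libraries. The cells kept numbered 1009 at D0, 2168 to 2815 in the conditions of D5 and D10, and 9107 to 11056 at D22 to D26. Libraries held 58073098 to 130440502 UMIs, and the median cell had 69455 UMIs at D0, 24290.5 to 31112.5 at D5 and D10, and 7180 to 12179 later. Each condition was 1 library of 1 culture. Nothing was tested and no p-value is given. Levels are given as CPM, the UMIs of a gene per 1000000 UMIs of the library, with exact 95% Poisson intervals. The interval of a ratio is exact and binomial, from how the UMIs of the gene divide between both libraries. All intervals cover counting error only, not the spread between cultures, and are too narrow where few cells hold the UMIs of a gene. In summed counts, fewer cells of a type and less RNA per cell cannot be told apart.

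The labels were checked against marker genes. The 5 pluripotency markers (POU5F1, NANOG, L1TD1, DPPA4 and LIN28A) summed to 4071 CPM at D0 and to 550 to 822 CPM at D5 and D10. Neural progenitor markers (PAX6, SOX1, HES5, FABP7 and LHX2) summed to 57.0 CPM at D0, 387 in D5_dSMADi, 290 in D5_XAV939, 1605 in D10_dSMADi and 1457 in D10_XAV939. Neuron markers summed to 223 CPM already at D0, and reached 2229 CPM at D22 and 9793 to 10555 CPM at D24 and D26. Cells of D5 took neither name: clusters made mostly of D5 cells had scores below 0 for pluripotent, progenitor and neuronal markers.

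ID1 and ID3 were both higher in D5_dSMADi than at D0 and lower with XAV939 at D5, and the 250 bases before the annotated start of each are shown so that a reader can see the sequence beside the counts. They were chosen after the values were seen. Sequences are from RefSeq (GRCh38.p14), 5′ to 3′ on the strand of the gene. ID1 lies on the plus strand at chr20:31605039-31605288 and ID3 on the minus strand at chr1:23559502-23559751. Capitals mark matches, on either strand, to CANNTG (the E-box that E proteins bind), CAGAC (the core of a SMAD site), GGCGCC (a GC-rich SMAD1/5 motif) and TATAA (the core of a TATA box).
ID1: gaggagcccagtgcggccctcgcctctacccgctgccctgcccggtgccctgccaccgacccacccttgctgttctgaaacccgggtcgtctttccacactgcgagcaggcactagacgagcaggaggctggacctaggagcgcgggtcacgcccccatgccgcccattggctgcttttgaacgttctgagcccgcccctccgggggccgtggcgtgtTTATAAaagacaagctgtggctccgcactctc
ID3: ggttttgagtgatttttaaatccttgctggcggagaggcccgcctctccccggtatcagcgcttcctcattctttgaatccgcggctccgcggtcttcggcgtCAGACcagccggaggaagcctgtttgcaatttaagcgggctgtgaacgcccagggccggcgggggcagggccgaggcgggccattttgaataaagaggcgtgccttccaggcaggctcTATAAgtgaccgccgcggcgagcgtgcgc

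Both windows held TATAA, which 18.9% of 35116 windows of this length held. In ID1 the 2 matches were the overlapping forms on the 2 strands. ID3 alone held CAGAC, found in 38.0% of all windows. Neither held CANNTG, found in 61.8%, or GGCGCC, found in 16.4%. ID4 had the same directions at D5, and its window, not printed here, held 1 match to each of the other 3 motifs and 0 to the GC-rich one. These are matches of letters in a short window, and say nothing of sites farther away. The genes themselves are short. Their positions here are from GENCODE, whose start of ID1 lies a few bases before that of RefSeq, so the last bases of the ID1 window fall inside the GENCODE gene. ID1 covers chr20:31605283-31606515 with 2 exons, ID2 chr2:8678845-8684461 with 3, ID3 chr1:23557926-23559501 with 3 and ID4 chr6:19837370-19842197 with 3 exons in the canonical transcript. The antisense gene ID2-AS1 overlaps ID2 and had at most 0.623 CPM in any library.

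The ID genes had different courses over the 8 libraries. ID1 and ID3 were highest in D5_dSMADi and near 0 at D24 and D26, ID4 was lowest at D0 and highest at D10, and ID2 was highest at D5 and lowest in D10_dSMADi. ID1 was 106 CPM at D0, 328 in D5_dSMADi, 66.5 in D5_XAV939, 12.1 in D10_dSMADi, 10.5 in D10_XAV939, 3.71 at D22, 0.157 at D24 and 0.292 at D26. Only the last 2 could not be told apart by counting error. ID3 was 246 CPM at D0, 1068 in D5_dSMADi, 397 in D5_XAV939, 31.9 in D10_dSMADi, 46.9 in D10_XAV939, 8.95 at D22, 1.87 at D24 and 0.463 at D26, and no neighbours in this order had overlapping intervals. From the highest to the lowest library the range was 2092-fold for ID1 and 2310-fold for ID3. These folds are imprecise, since the lowest levels rest on few UMIs. ID1 had 11 UMIs at D24 (0.0783 to 0.281 CPM) and ID3 had 46 at D26 (0.339 to 0.617 CPM).

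ID4 ran otherwise. Its level was 12.3 CPM at D0, 104 in D5_dSMADi, 43.5 in D5_XAV939, 533 in D10_dSMADi, 405 in D10_XAV939, 403 at D22, 108 at D24 and 251 at D26. Intervals overlapped for D10_XAV939 and D22, as well as for D24 and D5_dSMADi. ID2 had the narrowest range of the 4, 6.498-fold: 34.5 CPM at D0, 111 in D5_dSMADi, 108 in D5_XAV939, 17.1 in D10_dSMADi, 46.0 in D10_XAV939, 24.4 at D22, 24.9 at D24 and 29.7 at D26. Both D5 conditions overlapped, as did D22 and D24. Levels of D22 to D26 stand beside those of D0 to D10 with reserve, since the dissociation (papain against Accutase), the version of the counting software and the annotation release differed.

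**Figure D1:**
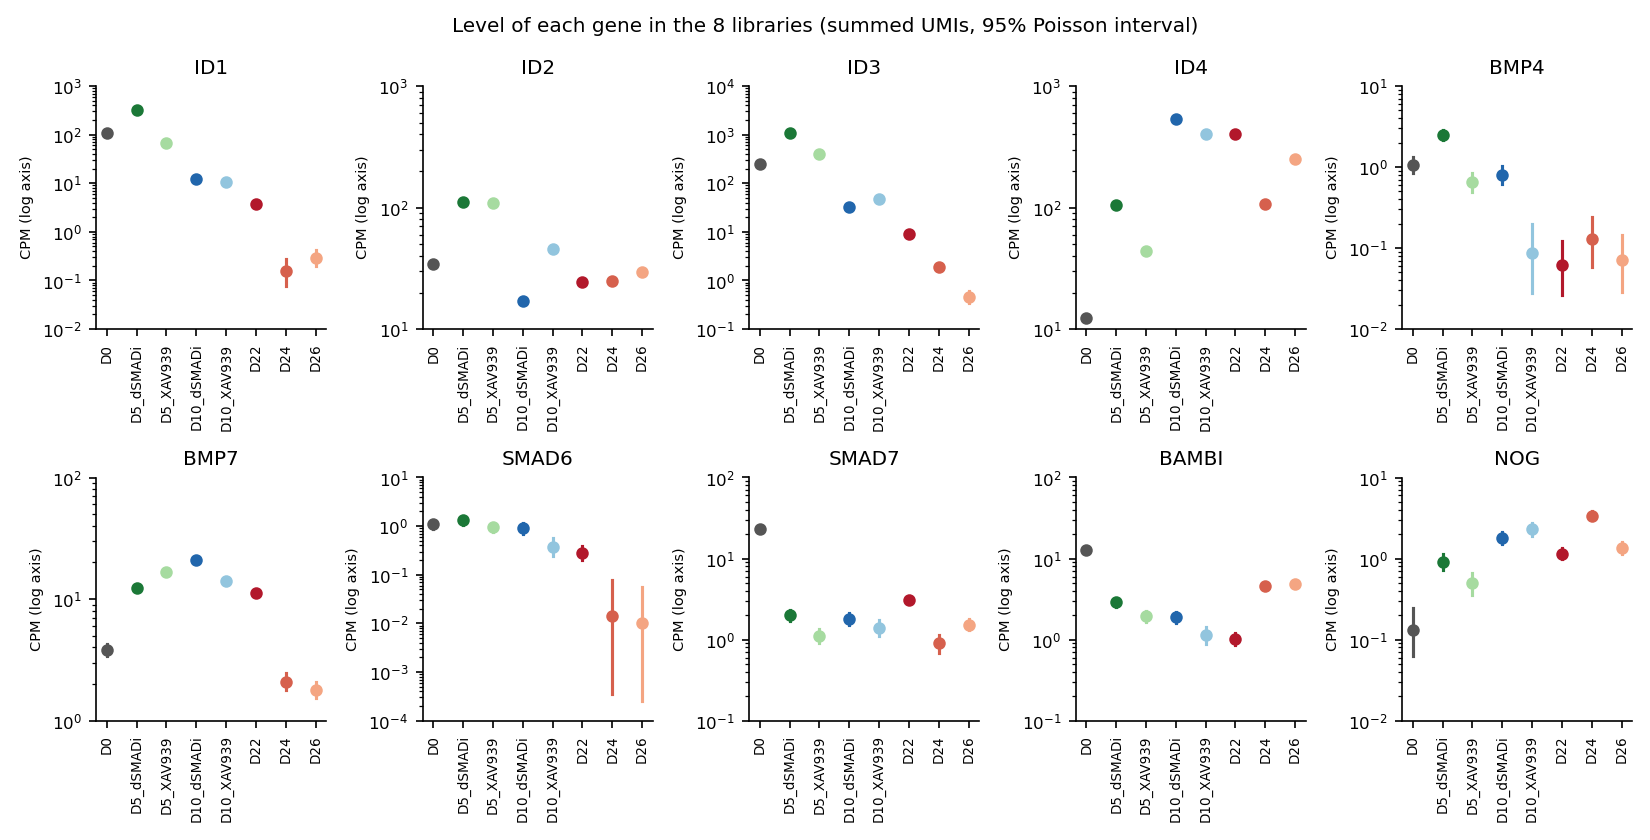
Level in CPM (log axis, a scale of its own in each panel) of the 10 genes in each of the 8 libraries. Points are summed UMIs and lines the 95% Poisson interval. ID1 and ID3 peak in D5_dSMADi at 328 and 1068 CPM, and ID4 at D10.

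Together the ID genes made 399 CPM at D0, 1611 in D5_dSMADi, 615 in D5_XAV939, 594 in D10_dSMADi, 509 in D10_XAV939, 440 at D22, 134 at D24 and 281 at D26. ID3 made most of this sum up to D5, and ID4 from D10 on. ID3 gave 61.8% of these UMIs at D0, 66.3% in D5_dSMADi and 64.5% in D5_XAV939. ID4 gave 3.08% at D0, 89.7% in D10_dSMADi, 79.7% in D10_XAV939, 91.6% at D22, 80.0% at D24 and 89.2% at D26. Such a share in 3′ counts also depends on how well its end is captured. The 3 E protein genes summed to 231 CPM at D0, 251 to 327 CPM at D5 and D10, 304 at D22, 131 at D24 and 111 at D26. E proteins thus varied less than the ID genes they bind.

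All 4 ID genes were higher in D5_dSMADi, where the BMP receptor inhibitor was present, than at D0. ID4 differed most, by 3.08 on the log2 scale (2.98 to 3.18), followed by ID3 with 2.12 (2.09 to 2.14), ID2 with 1.69 (1.62 to 1.75) and ID1 with 1.63 (1.60 to 1.67). In folds these were 8.46, 4.34, 3.22 and 3.103. SMAD7 went the other way, from 22.9 CPM at D0 to 2.00 in D5_dSMADi, a log2 ratio of -3.52 (-3.76 to -3.28). A gene was called when it differed at least 2-fold and had at least 20 CPM in 1 of the 2 libraries, which 6672 genes did. Of the 10 genes, 5 passed this minimum, and 4 of them were called higher, against 7.66% of all genes tested. SMAD7 was the 1 called lower, against 15.6% of all genes. ID4 passed the minimum only through D5_dSMADi, and SMAD7 only through D0. The median log2 ratio of all genes tested was -0.13, and edgeR's TMM scaling raised every ratio of this comparison by 0.13.

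BAMBI did not reach the minimum but had the same direction as SMAD7, 12.6 CPM at D0 and 2.87 in D5_dSMADi, with a log2 ratio of -2.13 (-2.34 to -1.92). NOG had 10 UMIs at D0 and 73 in D5_dSMADi, which gave 2.80 (1.84 to 3.92). BMP7 was 3.82 CPM at D0 and 12.4 in D5_dSMADi, a ratio of 1.70 (1.51 to 1.90). SMAD6 was 1.08 and 1.32 CPM, a log2 ratio of 0.29 whose interval, -0.14 to 0.72, held 0. Of the inhibitory genes, SMAD7 and BAMBI were thus lower beside higher ID genes, and NOG was higher. SMAD6 could not be told apart between the libraries.

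D0 cells were deeper than those of D5. When only cells with at least 30000 UMIs were used in every library, the log2 ratios were 1.70 for ID1, 1.77 for ID2, 2.06 for ID3, 3.23 for ID4 and -3.28 for SMAD7. The share of cells with at least 1 UMI, after each cell was thinned to 10000 UMIs, was 59.5% at D0 and 84.99% in D5_dSMADi for ID1, 86.0% and 99.5% for ID3, 28.6% and 59.3% for ID2, and 11.8% and 55.2% for ID4. For SMAD7 it was 18.7% at D0 and 2.23% in D5_dSMADi. Without thinning, 95.8% of D0 cells and 96.0% of D5_dSMADi cells had a UMI of ID1, at median depths of 69455 and 28789 UMIs. After thinning, 67.5% of D5_dSMADi cells were above the D0 median of 1 UMI of ID1, and 95.2% were above the D0 median of 2 UMIs of ID3.

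**Figure D2:**
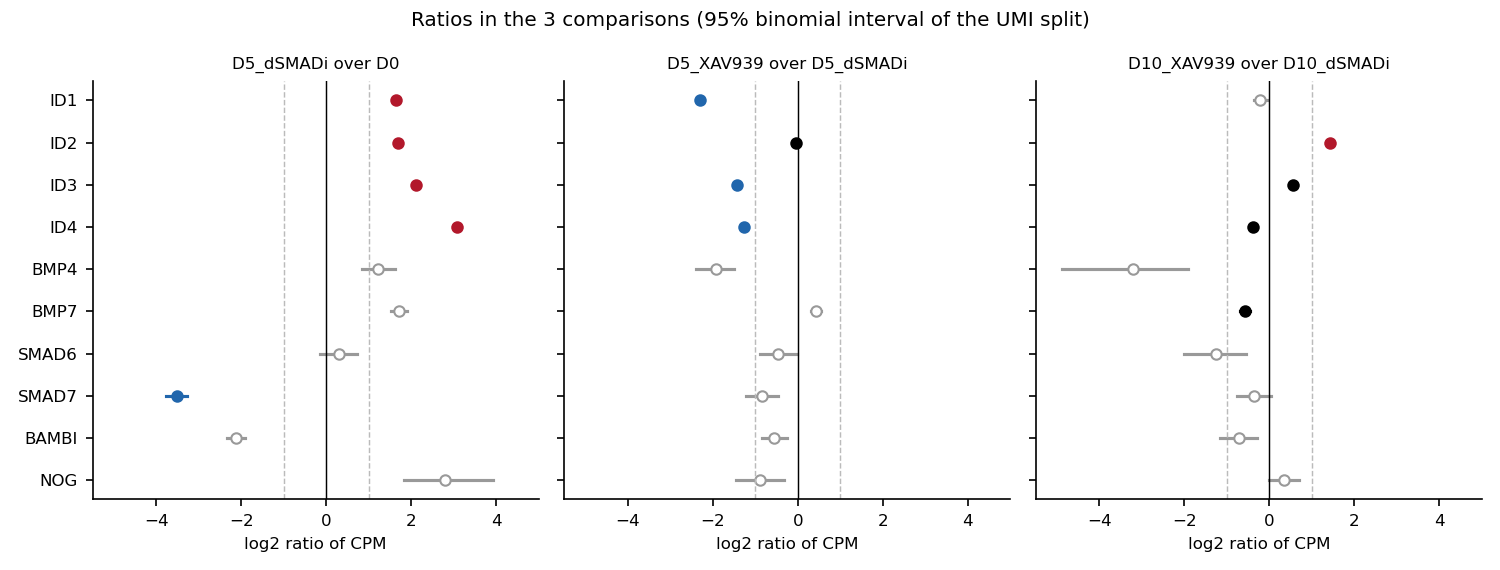
Log2 ratio of CPM (x axis) of the 10 genes in the 3 comparisons, with the 95% binomial interval of the UMI split. Red points were at least 2-fold higher and blue points at least 2-fold lower. Black points passed the minimum of 20 CPM without such a difference and open grey points did not pass it. Dashed lines mark 2-fold. All 4 ID genes lie right of 2-fold in the first panel, and ID1, ID3 and ID4 lie left of it in the second.

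The ID genes did not all differ alike between the D5 conditions with and without XAV939. ID1, ID3 and ID4 were lower in D5_XAV939 than in D5_dSMADi, and ID2 was at the same level within counting error. ID1 was 328 CPM without and 66.5 CPM with XAV939, a log2 ratio of -2.30 (-2.34 to -2.26), which leaves 0.203 of the level. ID3 was 1068 and 397 CPM, a ratio of -1.43 (-1.45 to -1.41). ID4 was 104 and 43.5 CPM, a ratio of -1.26 (-1.31 to -1.20). ID2 was 111 and 108 CPM, a ratio of -0.04 (-0.08 to 0.01).

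Few genes differed this much at D5. Of 6016 genes that passed the minimum of 20 CPM, 0.565% were at least 2-fold lower with XAV939 and 0.432% at least 2-fold higher. Of the 4 ID genes, the only ones of the 10 that passed the minimum, 3 were lower and 0 higher. Among all genes tested, 0.0332% had a lower ratio than ID1, 0.249% a lower one than ID3 and 0.332% a lower one than ID4. D5_dSMADi enters this comparison and the one with D0, so that a high value in that 1 library would give both a positive and a negative ratio. Set against D0 instead of D5_dSMADi, the level of D5_XAV939 was lower for ID1 (66.5 against 106 CPM) and higher for ID3 (397 against 246), ID2 (108 against 34.5) and ID4 (43.5 against 12.3).

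**Figure D3:**
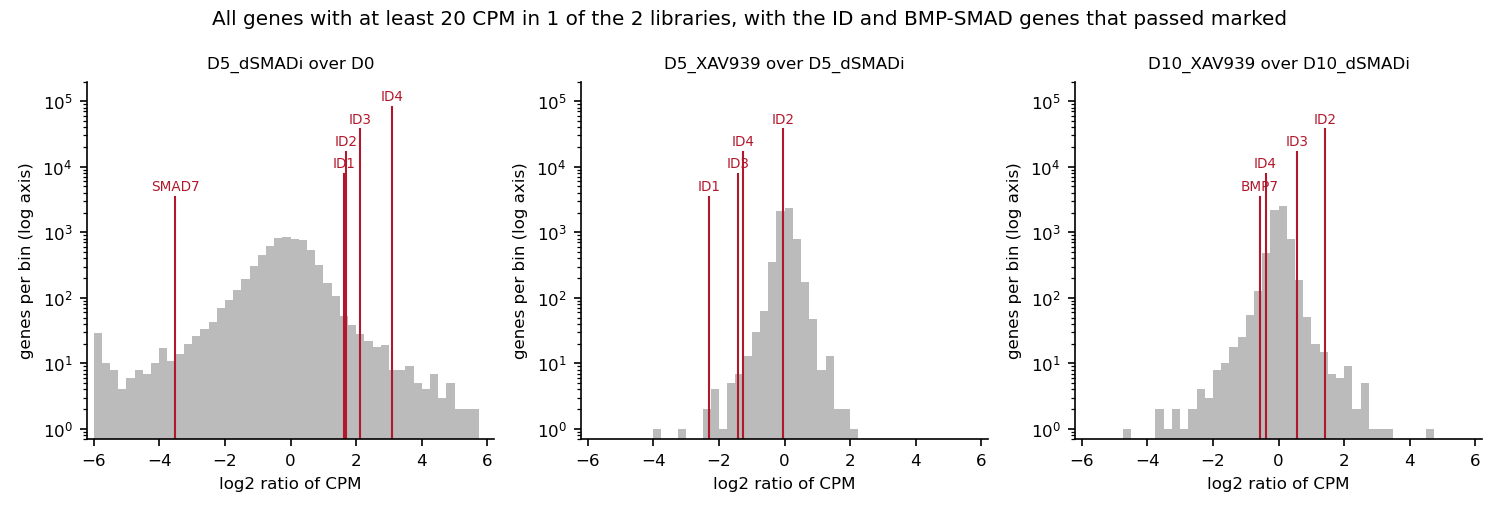
Log2 ratio of CPM (x axis) of all genes that passed the minimum of 20 CPM, as genes per bin of 0.25 (y axis, log scale, ratios beyond 6 placed in the outer bins). Red lines mark the genes described here that passed the minimum. In the middle panel ID1, ID3 and ID4 lie in the thin left tail and ID2 in the centre.

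The difference in ID1 and ID3 ran through the culture. After thinning to 10000 UMIs the median D5_dSMADi cell had 3 UMIs of ID1 and 10 of ID3, and the median D5_XAV939 cell 0 and 3. With XAV939, 93.5% of cells were below the D5_dSMADi median for ID1 and 91.1% for ID3, and 3.20% and 6.61% were above it. Cells with a UMI of ID1 made 84.99% without (83.5% to 86.4%) and 38.4% with XAV939 (36.6% to 40.2%). For ID4 these shares were 55.2% and 28.7%, and for ID2 59.3% and 56.7%. The cells richest in ID1 that together held 50% of its UMIs numbered 517 of 2419 in D5_dSMADi and 352 of 2815 in D5_XAV939. The clustering, in which the pathway genes were left out, split each D5 condition into a larger cluster and a smaller one with division genes such as UBE2C and TTK among its leading genes. ID1 was 302 and 362 CPM in the 2 clusters of D5_dSMADi, and 70.1 and 60.1 CPM in those of D5_XAV939. ID3 was 1074 and 1061 CPM against 426 and 365 CPM.

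**Figure D4:**
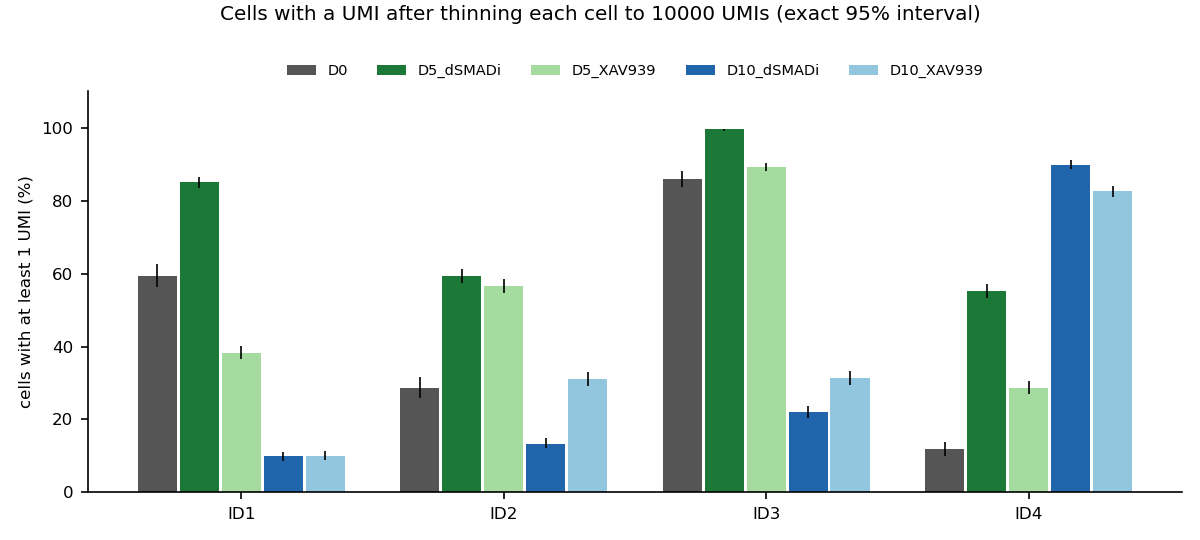
Percent of cells with at least 1 UMI (y axis) of ID1, ID2, ID3 and ID4 in the 5 conditions of 1 droplet run, after each cell was thinned to 10000 UMIs. Lines are exact 95% intervals. At D5 the share for ID1 is 84.99% without and 38.4% with XAV939, while that for ID2 is 59.3% and 56.7%.

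Markers of other cell types differed between the D5 conditions as well. The roof plate and choroid plexus list (TTR, RSPO2, LMX1A, FOLR1 and RSPO3) summed to 31.2 CPM in D5_dSMADi and 7.85 in D5_XAV939, and ranged from 1.13 to 12.5 CPM in the other 3 conditions of the run, with TTR at 0 in all 5. The non-neural ectoderm list (KRT7, KRT19, GRHL3, TP63 and GABRP) summed to 136 and 61.9 CPM. Of its 5 genes only KRT19 reached 1 CPM at D5, and TP63 was at 0 in D5_dSMADi. The mesenchyme list (COL1A1, COL3A1, PDGFRA, TWIST1 and PRRX1) summed to 5.41 and 3.96 CPM. Among cells with 0 UMIs of a list, the log2 ratio of ID1 with over without XAV939 was -2.30 for the roof plate list (2265 and 1180 cells), -2.22 for non-neural ectoderm (899 and 296 cells) and -2.29 for mesenchyme. For ID3 these 3 values lay between -1.44 and -1.41.

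At D10 the pattern was another one. ID2 was 17.1 CPM without and 46.0 CPM with XAV939, a log2 ratio of 1.43 (1.33 to 1.52). ID3 was also higher with XAV939, 31.9 and 46.9 CPM, by 0.56 (0.48 to 0.64). ID4 was lower, 533 and 405 CPM, with a ratio of -0.40 (-0.42 to -0.37), and ID1 was 12.1 and 10.5 CPM, -0.21 (-0.36 to -0.06). Of the 10 genes, ID2, ID3, ID4 and BMP7 passed the minimum of 20 CPM, ID2 only through D10_XAV939 and BMP7 only through D10_dSMADi. ID2 was the 1 called higher, against 1.04% of 6537 genes tested, and 0 were called lower, against 1.18%. The share of thinned cells with a UMI of ID2 was 13.4% without and 31.1% with XAV939, that of ID3 21.9% and 31.3%, that of ID4 89.9% and 82.6%, and that of ID1 9.85% and 10.1%. Marker lists differed between the D10 conditions too. The neuron list summed to 218 CPM without and 407 CPM with XAV939, beside 223 CPM at D0. Non-neural ectoderm summed to 69.6 and 35.4, mesenchyme to 14.7 and 4.55, and roof plate and choroid plexus to 8.75 and 12.5 CPM. Among progenitor-like cells alone, ID2 was 17.04 and 46.1 CPM and ID3 31.9 and 47.1 CPM. Among cells with 0 UMIs of the non-neural ectoderm, mesenchyme or roof plate list, the ratio lay between 1.40 and 1.505 for ID2.

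The low levels at D10 were measured in a run that also held the D5 and D0 cells. TDGF1, the nodal co-receptor, and PMEPA1, a TGF-β target, were high only at D0 and in the other 4 conditions were at 2.85% to 5.67% of their level in the pool of the run. Taking the lower of the 2 in each condition as the most that could be carried over, RNA from the pool could give up to 4.39 CPM of ID1 in D10_dSMADi and 3.12 in D10_XAV939, and up to 15.2 and 10.8 CPM of ID3. The measured levels were above these bounds, with 12.1 and 10.5 CPM for ID1 and 31.9 and 46.9 CPM for ID3. For ID3 the bound was a larger part of the level in D10_dSMADi than in D10_XAV939. The ID3 ratio at D10 was not corrected for this. For ID2 the bounds were 2.63 and 1.87 CPM, beside levels of 17.1 and 46.0 CPM. The bound assumes that free RNA has the makeup of the cells kept.

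The ligands were low. BMP7 was 3.82 CPM at D0, 12.4 in D5_dSMADi, 16.7 in D5_XAV939, 20.9 in D10_dSMADi, 14.1 in D10_XAV939, 11.3 at D22, 2.10 at D24 and 1.80 at D26. With XAV939 its log2 ratio was 0.42 at D5 (0.31 to 0.54) and -0.58 at D10 (-0.70 to -0.45). BMP4 was 1.07 CPM at D0, 2.47 in D5_dSMADi, 0.646 in D5_XAV939, 0.800 in D10_dSMADi and 0.0861 in D10_XAV939, and at most 0.128 CPM at D22 to D26. These ratios, 1.21 for D5_dSMADi over D0, -1.94 for XAV939 at D5 and -3.22 at D10 (5 against 63 UMIs), rest on few cells. In D5_dSMADi 5 cells held 102 of the 197 BMP4 UMIs, and 1 cell of D5_XAV939 held 26 of 56. Without the 5 cells with most BMP4 UMIs in each library, the ratio of D5_dSMADi over D0 was 0.37 (-0.09 to 0.84), and that for XAV939 at D5 -2.17 (-2.90 to -1.502). BMP7, in contrast, was spread over 747 of the 2419 D5_dSMADi cells, with at most 5 UMIs in a cell.

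The 4 inhibitory genes had different courses, and all were low at D5 and D10. SMAD7 was 22.9 CPM at D0, 2.00 in D5_dSMADi, 1.12 in D5_XAV939, 1.79 in D10_dSMADi, 1.39 in D10_XAV939, 3.12 at D22, 0.898 at D24 and 1.53 at D26. BAMBI was 12.6 CPM at D0, between 1.01 and 2.87 CPM from D5 to D22, 4.53 at D24 and 4.91 at D26. SMAD6 had 0.901 to 1.32 CPM at D0, at D5 and in D10_dSMADi, 0.379 in D10_XAV939, 0.284 at D22, and 1 UMI in each of D24 and D26. NOG was 0.132 CPM at D0, 0.916 in D5_dSMADi, 0.496 in D5_XAV939, 1.82 in D10_dSMADi, 2.29 in D10_XAV939, 1.15 at D22, 3.39 at D24 and 1.36 at D26. With XAV939 at D5, SMAD7 had a log2 ratio of -0.83 (-1.21 to -0.46), NOG -0.89 (-1.46 to -0.32), BAMBI -0.56 (-0.86 to -0.27) and SMAD6 -0.46 (-0.89 to -0.03). All 4 were below 0, as were ID1, ID3 and ID4, and none of the 4 reached 2-fold. At D10 SMAD6 was -1.25 (-2.01 to -0.54), BAMBI -0.73 (-1.17 to -0.30), SMAD7 -0.36 (-0.77 to 0.04) and NOG 0.34 (-0.02 to 0.69), so that the intervals of SMAD7 and NOG held 0.

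The rest of the pathway was taken from lists of 56 other genes, to be read against the 7.66% of all genes tested that were called higher and the 15.6% called lower in D5_dSMADi over D0. For D5_dSMADi over D0, 4 of 10 receptors and co-receptors passed the minimum, of which 0 were higher and 1 lower, TDGF1 (366 and 3.12 CPM, -6.87). Of 6 signal-transducing SMADs 4 passed and 1 was higher, SMAD2 of the activin branch (45.5 and 119 CPM, 1.38), while SMAD5 of the BMP branch, named after its values were seen, was 76.4 and 111 CPM. Of 11 secreted antagonists 2 passed and both were higher, FST (follistatin, which binds activin and BMP) with 36.6 and 123 CPM and SMOC1 with 6.73 and 146 CPM. SMOC1 passed only through D5_dSMADi, where it was high. Antagonists below the minimum went both ways, such as CHRDL1 (10.0 and 4.29 CPM) and NBL1 (3.17 and 14.9 CPM). Of 6 intracellular regulators 5 passed and 2 were lower, SKIL (176 and 37.8 CPM, -2.22) and PMEPA1 (32.1 and 0.376 CPM, -6.42), both targets of TGF-β and activin signals. Of 9 other BMP-responsive genes and of 11 ligands, 0 passed. Of the 3 E proteins all passed and none differed 2-fold. The median log2 ratio was -0.09 for the receptors that passed, 0.49 for the SMADs, 3.09 for the 2 antagonists and -0.59 for the regulators. It was -0.13 for all genes tested and 1.69 for the 5 genes described here that passed.

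With XAV939 at D5, 0 genes of these lists that passed the minimum differed 2-fold, where 0.432% of all genes tested were higher and 0.565% lower, so that a count of 0 among so few genes is near the background. The lists had 3 receptors, 5 SMADs, 3 antagonists, 3 regulators and 3 E proteins that passed, with median log2 ratios of 0.16, 0.22, 0.30, -0.25 and 0.14, beside 0.04 for all genes tested and -1.34 for the ID genes. FST, 123 CPM without and 70.3 with XAV939, was the lowest of them at -0.80 (-0.85 to -0.76). At D10, 4 receptors, 4 SMADs, 3 antagonists, 4 regulators and 3 E proteins passed, and 1 differed 2-fold (1.18% of all genes tested were lower and 1.04% higher), the activin receptor ACVR2A, which was 34.7 CPM without and 11.5 CPM with XAV939 (-1.59). BMPR1A, a type I receptor of the BMP branch named after its values were seen, stayed between 35.9 and 38.4 CPM in all 5 conditions of the run.

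At D22 ID4 was highest in a different cluster from ID1, ID2 and ID3, but none of these genes was confined to a single cluster. Cells of D22 to D26 were clustered without the pathway genes, and the clusters are described by their leading genes. ID4 was 728 CPM in 1559 D22 cells led by the division genes CENPF, UBE2C and PTTG1 (proliferating progenitor-like), and 664 CPM in 459 cells led by histone genes. It was 611 CPM in 1514 cells led by ATP2B4, PLS3 and C1orf61, with DLX1 and DLX2 among the leading genes. In 4355 cells led by SSTR2, NEUROD4 and NHLH1 (nonproliferating progenitor-like) it was 214 CPM, and in 680 cells led by FSTL5, RSPO3 and NTS it was 112 CPM. The CENPF cluster made 16.4% of D22 cells and held 34.0% of the ID4 UMIs, and the histone cluster made 4.82% and held 12.4%. Deeper cells hold a larger share of the UMIs of any gene. The median cell had 20250 UMIs in the histone cluster and 13069 in the CENPF cluster, against 12179 in the D22 library. The boundaries of these clusters moved with the settings. When doublets were removed before clustering, the ATP2B4 cluster grew from 1514 to 2374 D22 cells and the CENPF cluster shrank from 1559 to 849. At resolution 1.0 with doublets kept, the ATP2B4 cluster had 752 D22 cells and the cluster led by UBE2C and CENPF 932. The cause of these changes was not tested.

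In the neurons of D24 and D26, ID4 was 188 CPM at D24 and 437 at D26 in a cluster led by GNRH1, DLX6-AS1 and DLX5 (GnRH-GABA-like). The largest cluster of D24 was that led by FSTL5, RSPO3 and NTS, with 102 CPM of ID4 in 7419 cells. The largest of D26 was led by GABRA2, CDH12 and TNIP3, with 199 CPM in 8531 cells. Neither is given a cell type name here, since few or none of the markers fixed for a type were among their leading genes.

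ID3, and to a lesser degree BMP7, were concentrated in few D22 cells. A cluster of 452 D22 cells led by SFRP2, PTX3 and WLS, with NR2F1 and IRX2 among its leading genes (IRX-like), had 18.3 CPM of ID1, 101 of ID2, 91.4 of ID3 and 78.1 of BMP7. These were 4.75% of D22 cells and held 47.5% of the ID3 UMIs, 32.1% of those of BMP7 and 22.9% of those of ID1. They also held 3.44% of the ID4 UMIs. A second cluster of 174 cells, led by MT1X and SFRP2, shared PTX3, WLS and NR2F1 with it as leading genes beside the S phase genes HIST1H1B and TYMS. It had 20.8 CPM of ID1, 97.3 of ID3 and 76.5 of BMP7 and held 30.8% of the ID3 UMIs and 2.15% of those of ID4. Its cells were deep, with a median of 19229.5 UMIs over D22 to D26, which raises its share of the UMIs of any gene. In the SSTR2 cluster, 45.7% of D22 cells, ID1 was 0.568 CPM, ID3 0.440 and BMP7 3.96. The CENPF cluster had 5.30 CPM of ID1, 2.81 of ID3 and 7.54 of BMP7, and held 26.9% of the ID1 UMIs. ID2 was 16.5 CPM in the CENPF, 9.60 in the SSTR2, 36.0 in the ATP2B4 and 40.3 in the FSTL5 cluster.

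**Figure D5:**
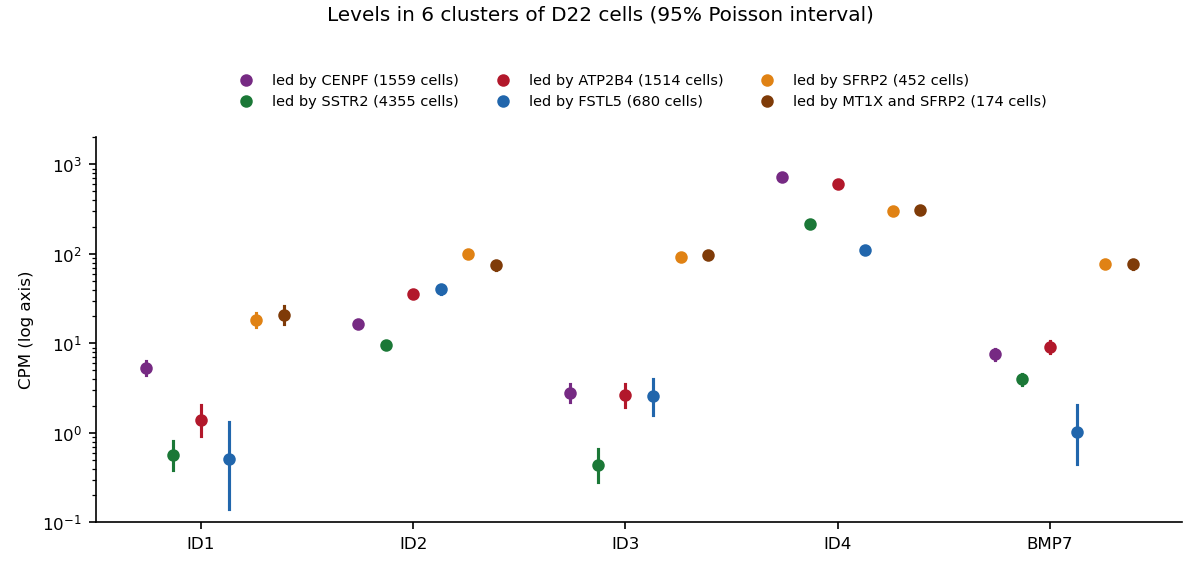
Level in CPM (y axis, log scale) of ID1, ID2, ID3, ID4 and BMP7 in 6 clusters of D22 cells, named by leading genes. Points are summed UMIs, lines the 95% Poisson interval, and cell numbers stand in the legend. The clusters led by SFRP2 and by MT1X and SFRP2 have the highest points for ID1, ID2, ID3 and BMP7, and the CENPF cluster for ID4.

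The IRX-like cells of D24 and D26 were mostly in another cluster, led by CRABP1, ROBO3 and SST. There ID1 had 1 UMI at D24 and 0 at D26, which allows up to 1.2 CPM, and ID3 had 2 UMIs and 1 UMI, while ID2 was 53.6 CPM at D24 and 66.2 at D26. From D0 to D10 the clusters followed the conditions, so that levels by cluster repeated those by condition. A cluster of 78 neuron-like cells at D10 (61 with XAV939) led by STMN2 and NEFM had 64.3 CPM of ID4 (118 UMIs), against 535 CPM in the progenitor-like cells of D10_dSMADi and 414 in those of D10_XAV939, and 37.1 CPM of ID2.

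Across the cells of 1 library, ID1 and ID3 varied together most in D5_dSMADi. Spearman's rho of their log-normalized levels was 0.44 over 2419 cells of D5_dSMADi, 0.29 over 2815 cells of D5_XAV939, 0.09 and 0.10 in the conditions of D10, and -0.12 over 1009 cells of D0. ID1 and ID4 had 0.27 in D5_dSMADi and 0.12 in D5_XAV939. ID2 and ID4 had -0.15 in D10_dSMADi and -0.26 in D10_XAV939. These are descriptions, since cells of 1 library share a culture and a depth, and the rho of each ID gene with the UMIs of the cell lay between -0.09 and 0.22 in these 5 libraries.

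Among the 4890 genes that reached 50 CPM in a library, the course of ID1 over the 8 libraries was most like that of ID3 (Pearson's r of log2 CPM with 10 CPM added, 0.98), FST (0.95) and TNNT1 (0.94). ID3 was most like FST (0.98), ID1 (0.98) and TNNT1 (0.97). For ID2 the nearest were TET1 (0.94), ADSS (0.91) and PAMR1 (0.90), and for ID4 GNAI3 (0.95), NCALD (0.93) and CCDC50 (0.93). The r of ID4 was -0.61 with ID1 and -0.58 with ID3. With 8 points that share day, depth and batch of handling, these values describe likeness of course only. FST was 36.6 CPM at D0, 123 in D5_dSMADi, 70.3 in D5_XAV939 and 23.7 in D10_dSMADi, and GNAI3 ranged only from 104.6 to 143 CPM.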

How the data were processed

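Single-cell 3′ libraries of WA09 cultures were analysed, 1 per condition. The deposited values are raw counts of UMIs per gene and cell, which the authors made with Cell Ranger (3.1 per the submitters' processing notes, 3.1.0 and 6.1.2 per the file headers) on GRCh38. The annotation of the D22 to D26 files differs from that of the others. The study's cell limits were applied, except that at D0 the stated complexity limit of 0.85 kept 1 of 1292 barcodes and was left out. Cells of D0 then needed 30000 UMIs, 5000 genes and under 10% mitochondrial UMIs. Counts were summed over cells, divided by all UMIs and given as CPM. Ratios were taken without a pseudocount. A gene passed if either library of a comparison had 20 CPM or more.

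Doublets were scored with simulated pairs (a score of 0.25 marked 1.70% to 6.36% of cells) and kept. Cells were clustered (leidenalg 0.10.2, igraph 0.11.9) without the pathway genes, at resolution 0.5 for D22 to D26 and 0.3 for D0 to D10. A cluster took the name of its best marker list at a score of at least 0.2, a limit set after the scores were seen, if at least 3 of its markers were detected, no other list named for that clustering had more markers among the 10 leading genes, and the cluster was not both shallow and without such a marker. At D22 to D26, clusters with fewer than 2 such markers are described by their leading genes only. So is the ATP2B4 cluster, which had 2 such markers and a score of 0.284. The progenitor-like clusters of D10 keep their name with 0 or 1 such marker. Genes outside the 10 were named from the lists when called, and for the ID genes the 3 most alike in course. The members and lists were chosen with earlier results of these data known. The scripts were tested on simulated data. Alternatives were edgeR 4.0.16 TMM and DESeq2 1.42.0 size factors, no minimum level, a 1.5-fold limit, all barcodes, at least 30000 UMIs in every library, doublets removed, means over cells, no thinning and resolution 1.0. After the data were seen, values without the 5 cells richest in a gene and in cells without UMIs of other cell types' markers were added. The results of 1 marker list, under which the ID3 ratio at D10 moved most, are not reported here. Python 3.11.15, numpy 2.4.6, scipy 1.17.1, pandas 2.3.3 and R 4.3.3 were used.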

Additional observations from a re-analysis of the deposited data

Results flagged for a closer look

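ID3 and BMP7 had XAV939 ratios of opposite sign on the 2 days. The log2 ratio of ID3 with over without XAV939 was -1.43 at D5 and 0.56 at D10. That of BMP7 was 0.42 at D5 and -0.58 at D10. Each value compares 1 library with 1 library, and the difference between the days was not tested.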

How the results depend on the processing

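Of 48 counts of the 10 genes under other settings, 45 stayed within 1.5 times the value reported. The other 3 came without a minimum level, when more of the 10 genes entered: 7 higher and 2 lower for D5_dSMADi over D0, and 2 lower with XAV939 at D10. The share of all genes called was taken only with the minimum, so these 3 counts have no background beside them and are not read further. Of 249 log2 ratios, 201 moved by less than their counting interval, 47 by more, and 1 changed sign: ID2 with XAV939 at D5 was 0.029 in cells with at least 30000 UMIs. The ratios of the ID genes moved by at most 0.3 under all settings other than those limited to cells without UMIs of a marker list. Without thinning, 96.0% of D5_dSMADi and 62.9% of D5_XAV939 cells had a UMI of ID1, against 36.1% and 10.2% when thinned to 1500 UMIs. ID3 in IRX-like cells of D22 was 98.3 CPM with doublets removed. The lower shares after thinning follow from the UMIs taken out of each cell, and the cause of the other shifts was not tested. No paired analysis was possible because each condition had 1 library. Counting depth limits SMAD6, BMP4 and NOG most, and the spread between cultures is unknown for every value.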

Other observations

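Genes known to answer to activin, nodal and TGF-β signals, picked here after their values were seen, had differing levels after the inhibitors of the first 10 days were no longer given. PMEPA1 was 32.1 CPM at D0, 0.189 to 0.376 CPM in the 4 conditions of D5 and D10, 27.3 at D22, 10.5 at D24 and 14.4 at D26. SKIL was 176 CPM at D0, 21.5 to 37.8 CPM at D5 and D10, 71.0 at D22, 156 at D24 and 153 at D26. SMAD7, 22.9 CPM at D0, was at most 3.12 CPM at D22 to D26. LEFTY1 was 7.98 CPM at D0 and at most 0.332 CPM at D22 to D26. NODAL was 1.33 CPM at D0 and at most 0.0843 CPM at D22 to D26.

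The 9 other BMP-responsive genes were all below the minimum level. MSX2 had 5 UMIs at D0, 83 in D5_dSMADi, 3 in D5_XAV939, 10 in D10_dSMADi and 0 in D10_XAV939. HEY1 was 1.36 CPM at D0, 6.93 in D5_dSMADi and 2.50 in D5_XAV939. With XAV939 at D5, the log2 ratio was -1.47 for HEY1, -2.23 for GATA2 (10 against 43 UMIs) and -0.66 for MSX1 (-1.16 to -0.16). The intervals held 0 for ATOH8 (37 against 30 UMIs), DLX3 (23 in each), TFAP2A (15 against 13) and GATA3 (2 against 6), and HAND1 had 0 UMIs in both. TFAP2A was 0.800 CPM in D10_dSMADi and 10.2 in D10_XAV939. In D5_dSMADi the MSX2 UMIs lay in 66 cells and those of HEY1 in 416 cells.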
